A study of Homo sapiens with 7 samples.

Results

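The MAGE genes form a family defined by a shared MAGE homology domain. They were taken here as all rows of the deposited expression table whose symbol begins with MAGEA, MAGEB, MAGEC, MAGED, MAGEE, MAGEF or MAGEH. The rule found 9 of the 13872 genes listed. Of these, 5 are type I genes (MAGEA3, MAGEA4, MAGEA6, MAGEA10 and MAGEC2) and 4 are type II genes (MAGED1, MAGED2, MAGEF1 and MAGEH1). No MAGEB or MAGEE gene is listed. The RNA came from cultures of UM-UC-3, a long-established line from a human bladder (urothelial) cancer, and total RNA was extracted for sequencing. There were 7 libraries, 3 ALDH-high clones (1, 6 and 10), 3 ALDH-low clones (1, 3 and 8) and 1 of the wild-type line. The clones had been picked with the ALDEFLUOR assay, in which aldehyde dehydrogenase (ALDH) activity makes living cells fluoresce. The submitters used the ALDH-high clones as cancer stem-like cells and the ALDH-low clones as their counterparts, and the clones were grown in DMEM with serum. All clones descend from 1 line, and each gave 1 library, so the spread given below is that between clones.

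Type I MAGE genes lie on the X chromosome and are classed as cancer-testis antigens: they are transcribed in germ cells of the testis, silent in most other adult tissues and active again in many tumours. Peptides of their proteins shown on HLA class I make tumour cells visible to T cells, and methylation of CpG sites in their promoters is known to go with silence. Type II MAGE genes are transcribed in most tissues. Proteins of both types bind RING ubiquitin ligases through the MAGE homology domain and steer their choice of substrate.

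The promoters of the genes that the results turn on are shown because the pair of type I genes with unlike values, MAGEA3 and MAGEA6, has the same one. Each window covers 250 bases before to 50 bases after a RefSeq start (GRCh38.p14), 5′ to 3′ on the gene's strand. Capitals mark GGATGTGA, searched on both strands and chosen after the sequences and values had been seen. The MAGEA3 window lies at chrX:152698544-152698843 (plus strand) and the MAGEA6 window at chrX:152769640-152769939 (minus strand), and they are the same at 300 of 300 positions, so they are printed once. The MAGEA4 window is the first of 5 for that gene, at chrX:151912224-151912523 (plus strand). The MAGEC2 window lies at chrX:142205241-142205540 (minus strand), and that of the type II gene MAGEF1 at chr3:184712015-184712314 (minus strand).
MAGEA3 and MAGEA6: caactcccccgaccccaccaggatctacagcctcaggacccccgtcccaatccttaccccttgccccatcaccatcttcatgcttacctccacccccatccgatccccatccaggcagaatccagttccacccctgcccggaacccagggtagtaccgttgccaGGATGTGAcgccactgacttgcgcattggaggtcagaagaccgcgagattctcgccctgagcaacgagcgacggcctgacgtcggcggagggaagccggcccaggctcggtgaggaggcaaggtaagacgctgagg
MAGEA4: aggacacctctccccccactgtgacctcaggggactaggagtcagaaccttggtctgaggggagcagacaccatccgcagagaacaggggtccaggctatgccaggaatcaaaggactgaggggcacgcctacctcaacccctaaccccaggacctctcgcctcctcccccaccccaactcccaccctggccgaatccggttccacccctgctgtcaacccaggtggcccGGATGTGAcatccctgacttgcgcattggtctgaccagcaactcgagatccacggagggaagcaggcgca
MAGEC2: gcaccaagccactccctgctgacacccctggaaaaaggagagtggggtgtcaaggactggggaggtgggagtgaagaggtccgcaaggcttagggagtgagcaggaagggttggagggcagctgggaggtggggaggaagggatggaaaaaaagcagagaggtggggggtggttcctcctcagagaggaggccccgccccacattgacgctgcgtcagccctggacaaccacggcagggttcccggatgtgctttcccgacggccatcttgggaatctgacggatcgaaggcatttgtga
MAGEF1: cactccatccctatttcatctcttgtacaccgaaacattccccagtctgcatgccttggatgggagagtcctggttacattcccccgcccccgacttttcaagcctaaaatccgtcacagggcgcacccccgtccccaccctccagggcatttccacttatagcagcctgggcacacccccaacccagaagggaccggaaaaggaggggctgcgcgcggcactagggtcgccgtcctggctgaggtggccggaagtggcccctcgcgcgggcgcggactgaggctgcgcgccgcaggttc

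Counting the first transcribed base as +1 and the base before it as -1, the motif begins at position -86 in the window that MAGEA3 and MAGEA6 share. It lies between -20 and -43 in the 5 MAGEA4 windows. It is found in no window of MAGEC2, MAGED1, MAGED2 or MAGEF1. Over all 35116 RefSeq promoter windows, 406 (1.16%) hold it. Among MAGE genes with a window, whether listed in the expression table or not, it occurs in 10 of 10 MAGEA genes, 2 of 10 MAGEB genes and 0 of 3 MAGEC genes, and in no window of the 7 type II genes. The motif was thus in every MAGEA gene with a window, and 9 of the 19 type I genes outside the table held it as well. The window of MAGEA3 and MAGEA6 has 19 CpG pairs, those of MAGEA4 have 10 to 15, and that of MAGEC2 has 10, against a median of 14 over all windows. The windows of the listed type II members have 10 to 21. RefSeq windows for MAGEA10 and MAGEH1 were not used here.

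Past the promoter, MAGEA3 and MAGEA6 differ at few positions. In GENCODE release 29, the transcripts MAGEA3-203 and MAGEA6-204 each have 1762 bases and differ at 25 of them. The first difference is at base 82 of the transcript, and 18 lie in the 945 coding bases. Of all stretches of 50 bases, 54.5% are the same in both transcripts. The stretch below, bases 845 to 873 of each transcript and part of the coding sequence, is shown because it holds 3 differing bases, in capitals, by which a read that covers them can be assigned to 1 of the genes.
MAGEA3-203: tgcccaagGcaggcCtcctgataatcGtc
MAGEA6-204: tgcccaagAcaggcTtcctgataatcAtc
The values of MAGEA3 and MAGEA6 are uncertain to the extent that the submitters' counting split reads from shared stretches. Their handling is not stated, nor is the type of library. If reads come from the 5′ ends of transcripts, those that end before base 82 are the same for both genes, and a read near the start does not reach the stretch shown. The table places MAGEA3 on the minus strand and MAGEA6 on the plus strand, the reverse of GENCODE release 29, while the strands of the other 7 members are the same in both. No coordinates are therefore given for the rows of the table.

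The deposited values are in CPM (reads scaled to library size), and reads per gene were recovered from them, with 24177114 to 25664901 reads in listed genes per library. Every listed gene reached at least 0.52 CPM in some library, so that absence from the table does not show that a gene is silent. The sort is visible in ALDH1A1, a main source of ALDEFLUOR signal, with 33.37 to 96.32 CPM in ALDH-high clones, 0 to 0.08 CPM in ALDH-low clones and 37.85 CPM in wild type. Of 19 urothelial and epithelial markers, 5 are listed, and no uroplakin is. The keratins KRT8 and KRT18 had 56.16 to 391.35 and 142.95 to 582.39 CPM over the 7 libraries, while KRT7 had 1.48 to 7.19 CPM, PPARG 0.24 to 7.94 CPM and FOXA1 0.40 to 1.96 CPM. Of the 4 tested, KRT8 (0.72) and KRT18 (0.85) had positive and KRT7 (-1.05) and PPARG (-0.96) negative differences between ALDH-high and ALDH-low clones on log2(CPM + 1), with adjusted p of 0.118 (KRT7) to 0.441 (PPARG) in limma. The summed level of the 5 was 243.28 to 755.24 CPM. Of 20 germ cell markers, 1 is listed, SOHLH2, with 0.24 to 2.59 CPM. CD68 was the 1 listed of 5 blood markers, with 64.36 to 139.04 CPM, and none of 3 endothelial or 5 fibroblast markers is listed.

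**Figure D1:**
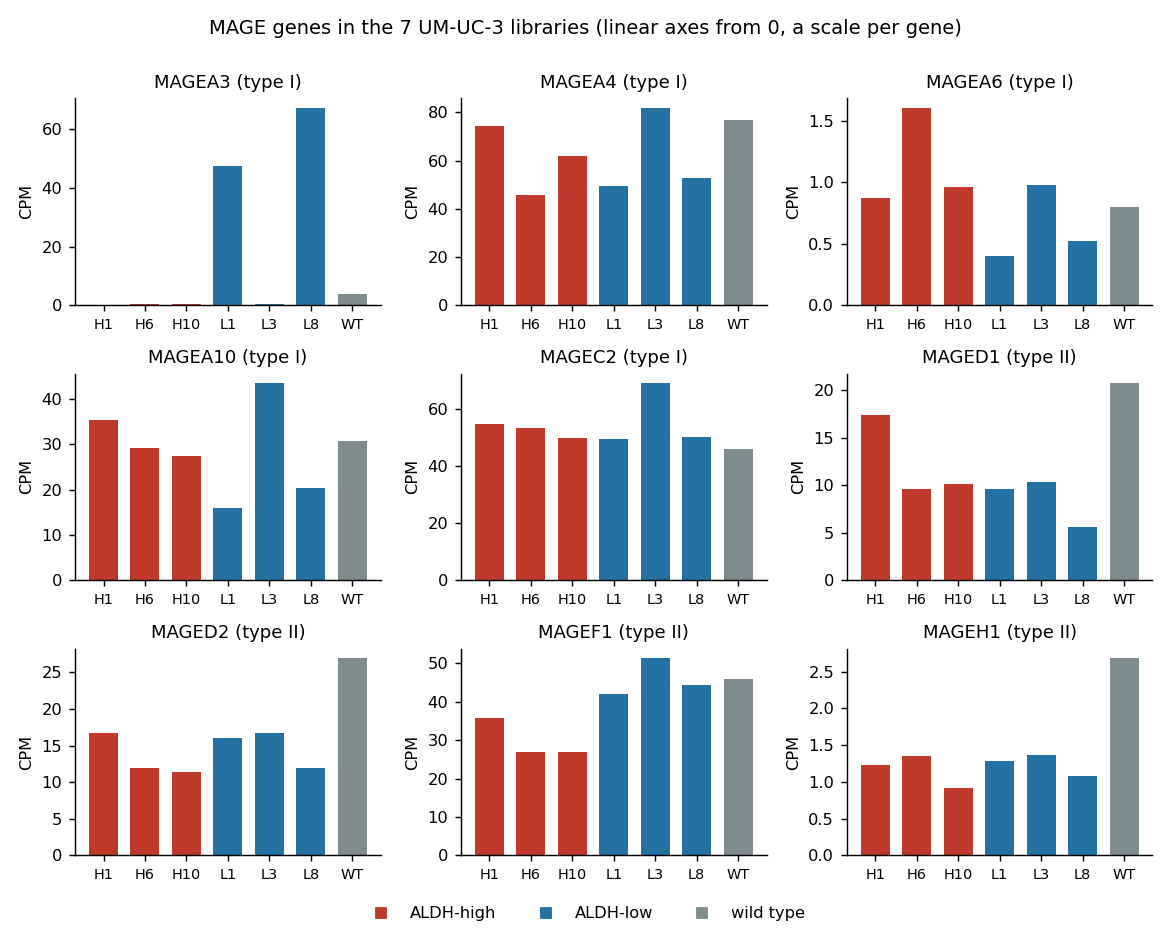
CPM of each MAGE gene (vertical axes, linear from 0, 1 scale per gene) in ALDH-high clones (H1, H6, H10), ALDH-low clones (L1, L3, L8) and wild type (WT). MAGEA3 was at 47.60 CPM in L1, at 67.20 CPM in L8 and at no more than 0.43 CPM in the other 4 clones, while MAGED1, MAGED2 and MAGEH1 were highest in wild type.

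MAGEA3 set the clones apart more than any other member. MAGEA3 (ENSG00000221867), whose protein works with the ligase TRIM28 and has been a vaccine target, had 0.16, 0.33 and 0.36 CPM in ALDH-high clones 1, 6 and 10. In ALDH-low clones 1, 3 and 8 it had 47.60, 0.43 and 67.20 CPM, against 3.68 CPM in wild type. It was thus abundant in 2 of the 3 ALDH-low clones, and in ALDH-low clone 3 and every ALDH-high clone it lay near the floor of 3 reads (0.118 to 0.123 CPM). The ALDH-low clones 1 and 8 had 1190 and 1680 reads, ALDH-low clone 3 had 11, and the ALDH-high clones had 4, 8 and 9. Within the ALDH-low group, clone 1 stood 111-fold above clone 3. Wild type, with 92 reads, stood 8.56-fold above ALDH-low clone 3, and ALDH-low clone 1 stood 12.9-fold above wild type. In a bulk library, fewer cells with the transcript and less transcript per cell cannot be told apart.

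The groups did not overlap for MAGEA3, but only by a margin within counting error. Of all tested genes, 26.1% had no overlap in either direction. The exact 95% Poisson interval was 0.165 to 0.683 CPM for ALDH-high clone 10 and 0.216 to 0.773 CPM for ALDH-low clone 3. Such intervals cover counting error only. The group means were 0.283 ± 0.108 CPM in ALDH-high and 38.4 ± 34.3 CPM in ALDH-low clones (SD, n = 3 each). The coefficient of variation (CV, SD over mean) in ALDH-low clones was 89.4%. On log2(CPM + 1), the gap between the highest and the lowest clone was 5.88, and 21 of the 13872 genes had a larger one. MAGEA3 reached 1 CPM in 2 clones and so was not among the genes tested, for which at least 1 CPM in 3 of the 6 clones was required. In the limma fit without that filter its difference (ALDH-high minus ALDH-low, in units of log2(CPM + 1)) was -3.71 (SE 1.30, adjusted p = 0.188). The threshold was an adjusted p of 0.05, and 1.05% of all genes passed it in that fit. Without ALDH-low clone 3, the ALDH-low clone with few MAGEA3 reads, the difference was -5.49 (limma, adjusted p = 0.0016). That fit called 157 of the 13872 genes. Leaving out the clone that goes against the difference favours a pass, so this p is no separate support. With any other single clone left out, the difference did not pass (limma, adjusted p of 0.263 to 0.42). DESeq2 and edgeR, run on the recovered reads of all clones, give a log2 fold change without the added 1 CPM. Its size cannot be set beside -3.71. It was -7.10 with DESeq2 (adjusted p = 0.000127), which called 1103 genes. With edgeR it was -7.08 and did not pass (adjusted p = 0.0909). The call thus depended on ALDH-low clone 3 and on the tool.

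MAGEA6 did not share this pattern. MAGEA6 (ENSG00000197172), the near copy of MAGEA3 in sequence and in partner ligase, had 0.87, 1.6 and 0.96 CPM in ALDH-high clones 1, 6 and 10. It had 0.40, 0.98 and 0.52 CPM in ALDH-low clones 1, 3 and 8, against 0.80 CPM in wild type. Its lowest values, from 10 and 13 reads, were those of ALDH-low clones 1 and 8, the clones with the most MAGEA3 reads. The other 5 libraries had 20 to 39 reads, and the groups overlapped. In ALDH-low clone 1 the exact 95% interval was 0.192 to 0.736 CPM, and in ALDH-high clone 6 it was 1.14 to 2.19 CPM. MAGEA6 reached 1 CPM in 1 clone and was not tested either, and without the filter its difference was 0.39 (limma, SE 0.225, adjusted p = 0.387). The 8 RefSeq genes that lie between MAGEA3 and MAGEA6 on the X chromosome, MAGEA2, MAGEA2B, MAGEA12, the CSAG genes CSAG1 to CSAG4 and a non-coding RNA, are not listed in the table.

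**Figure D2:**
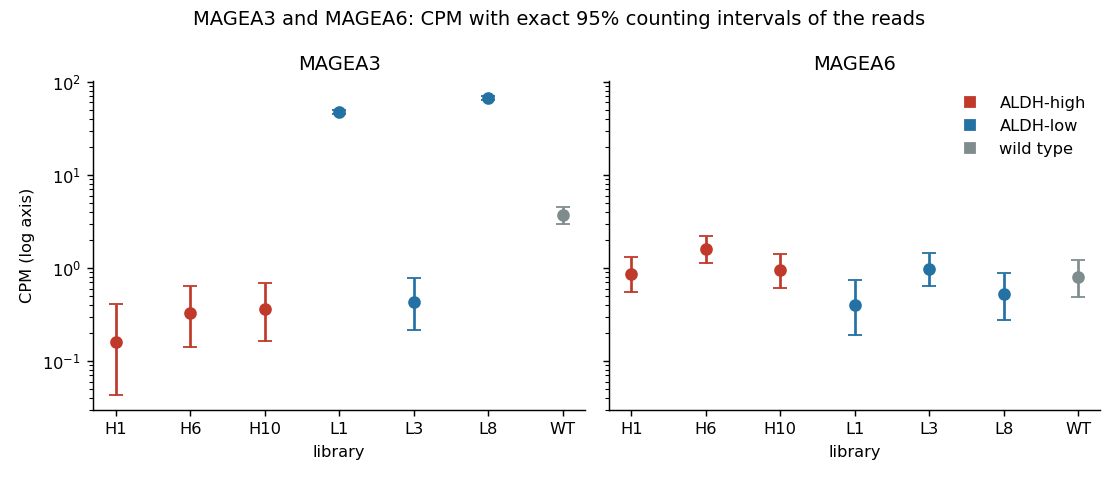
MAGEA3 (left) and MAGEA6 (right) in CPM on a log axis for ALDH-high clones, ALDH-low clones and wild type, with bars for the exact 95% Poisson interval of the reads. MAGEA3 spans 0.16 to 67.20 CPM, with wild type at 3.68 CPM, whereas MAGEA6 stays between 0.40 and 1.6 CPM.

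The remaining type I genes were present in every library. MAGEA4 (ENSG00000147381), an antigen used as a target of engineered T cells, had 74.31, 45.68 and 62.04 CPM in ALDH-high clones 1, 6 and 10. It had 49.24, 81.67 and 52.60 CPM in ALDH-low clones 1, 3 and 8, against 76.89 CPM in wild type. The groups overlapped across nearly their whole range, with the highest clone in one group and the lowest in the other. The difference, on the same scale, was -0.002 (limma, SE 0.248, adjusted p = 0.998), and its sign turned once ALDH-high clone 6, or clone 3 of the ALDH-low group, was left out.

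MAGEA10 (ENSG00000124260), likewise a T cell target, had 35.33, 29.26 and 27.40 CPM in ALDH-high clones. It had 15.84, 43.41 and 20.40 CPM in ALDH-low clones 1, 3 and 8, against 30.77 CPM in wild type. ALDH-low clones 1 and 8 lay below every ALDH-high clone, and ALDH-low clone 3 lay above all of them. The CV was 13.5% in ALDH-high and 55.7% in ALDH-low clones. The difference was 0.32 (limma, SE 0.337, adjusted p = 0.640), and 0.73 without ALDH-low clone 3 (adjusted p = 0.137). MAGEA10 has the same 7 values as the row RP11-1007I13.4, so the source of its reads is uncertain.

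MAGEC2 (ENSG00000046774), which like MAGEA3 works with TRIM28, had the lowest ratio of highest to lowest clone of the 9 members (1.39). It had 54.80, 53.44 and 50 CPM in ALDH-high clones, against 49.56, 69.10 and 50.40 CPM in the ALDH-low clones, with wild type at 46.20 CPM. Apart from ALDH-low clone 3, all clones lay between 49.56 and 54.80 CPM. The difference was -0.08 (limma, SE 0.169, adjusted p = 0.831), with a CV of 4.69% in ALDH-high and 19.6% in ALDH-low clones. Its sign turned without ALDH-low clone 3 (0.075, adjusted p = 0.821).

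ALDH-low clone 3 thus had the highest value among the clones for MAGEA4, MAGEA10 and MAGEC2, and nearly none of MAGEA3. High values in this clone were not particular to type I genes. It was also the highest clone for the type II genes MAGEF1 (51.26 CPM), MAGED2 (16.77 CPM) and MAGEH1 (1.37 CPM), though not for MAGED1. For MAGED2 and MAGEH1 the margin was small, with the next clone at 16.69 and 1.35 CPM. Summed over the 5 type I genes, ALDH-high clones 1, 6 and 10 had 165.47, 130.31 and 140.76 CPM. The ALDH-low clones 1, 3 and 8 had 162.64, 195.59 and 191.12 CPM, against 158.34 CPM in wild type. MAGEA3 made up much of these sums in only some libraries. Of type I reads it accounted for 29.3% in ALDH-low clone 1 and 35.2% in ALDH-low clone 8, with exact Clopper-Pearson 95% intervals of 27.9 to 30.7% and 33.8 to 36.5%. In wild type it accounted for 2.32% (1.88 to 2.84%), and in the other 4 clones for 0.0961 to 0.256%. Without MAGEA3 the sums of ALDH-low clones 1 and 8 were 115.04 and 123.92 CPM, below those of all ALDH-high clones (129.98 to 165.31 CPM), and ALDH-low clone 3 stood at 195.16 CPM.

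**Figure D3:**
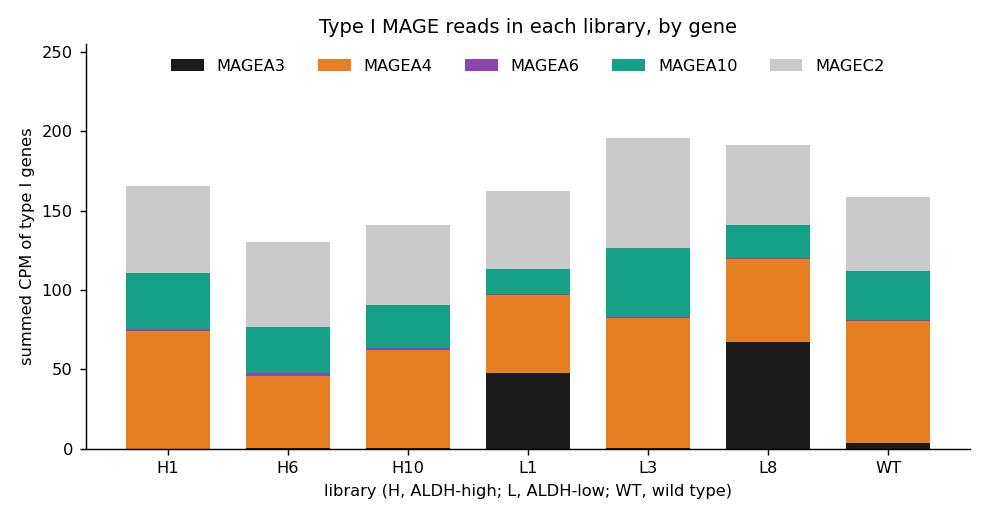
Summed CPM of the 5 type I MAGE genes (vertical axis, linear from 0) in each library, stacked by gene. The sums run from 130.31 to 195.59 CPM, and MAGEA3 (black) is a large part of them in ALDH-low clones 1 and 8 only, with a thin band in wild type.

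Among type II genes, MAGEF1 was lower in all ALDH-high clones than in any ALDH-low clone. MAGEF1 (ENSG00000177383, chromosome 3), known as a partner of the ligase NSMCE1 that acts on the iron-sulfur assembly factor MMS19, had 35.72, 26.96 and 26.96 CPM in ALDH-high clones 1, 6 and 10. It had 41.88, 51.26 and 44.40 CPM in ALDH-low clones 1, 3 and 8, against 45.92 CPM in wild type. The groups did not overlap, and wild type lay within the range of the ALDH-low clones. Of the 7 members tested it was the only one without overlap, where 26.1% of all tested genes had none. The means were 29.9 ± 5.06 CPM in ALDH-high and 45.8 ± 4.85 CPM in ALDH-low clones (SD, n = 3 each). The difference was -0.61 (limma, SE 0.173, unadjusted p = 0.00782) and did not pass over all genes (adjusted p = 0.119). The call depended on the tool and on its settings: the adjusted p was 0.0376 with library weights in limma, 0.0345 with DESeq2 and 0.12 with edgeR, and it ranged from 0.0345 to 0.302 over 16 alternatives.

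MAGED1 (ENSG00000179222), an adaptor that binds the p75 neurotrophin receptor, had 17.40, 9.60 and 10.08 CPM in ALDH-high clones. It had 9.60, 10.33 and 5.60 CPM in ALDH-low clones, against 20.70 CPM in wild type. ALDH-high clone 1 stood above the other clones and ALDH-low clone 8 below them, while the remaining 4 clones lay within 9.60 to 10.33 CPM. The difference was 0.48 (limma, SE 0.301, adjusted p = 0.419). MAGED2 (ENSG00000102316), whose loss in humans causes a transient form of Bartter syndrome before birth, had 16.69, 11.98 and 11.40 CPM in ALDH-high clones. It had 16, 16.77 and 11.88 CPM in ALDH-low clones and 26.90 CPM in wild type. The clone groups overlapped, and wild type exceeded each clone (difference between clone groups -0.15, limma, SE 0.220, adjusted p = 0.746). MAGEH1 (ENSG00000187601), a small protein that is little more than the MAGE domain, was at 0.92 to 1.35 CPM in ALDH-high clones, 1.08 to 1.37 CPM in ALDH-low clones and 2.68 CPM in wild type. Its difference was -0.05 (limma, SE 0.208, adjusted p = 0.906). It rests on 23 to 67 reads per library and has the same 7 values as hsa-mir-4536-2, so that the source of these reads is uncertain.

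In all, 0 of the 7 members tested passed limma at an adjusted p of 0.05, where 1.34% of the 12705 genes tested passed. An unadjusted p under 0.05 was found for 1 of the 7 (MAGEF1) and for 19.7% of all genes tested. With the recovered reads edgeR called 0 of the 7, against 0.913% of all genes, and DESeq2 called 1 of the 7, against 7.9% of all genes. The median difference was -0.05 over the 7 members, -0.002 over the 3 type I and -0.10 over the 4 type II members, against 0.004 over all genes tested. With 3 clones against 3, the smallest two-sided p that exact permutation of 1 gene's values allows is 0.1.

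**Figure D4:**
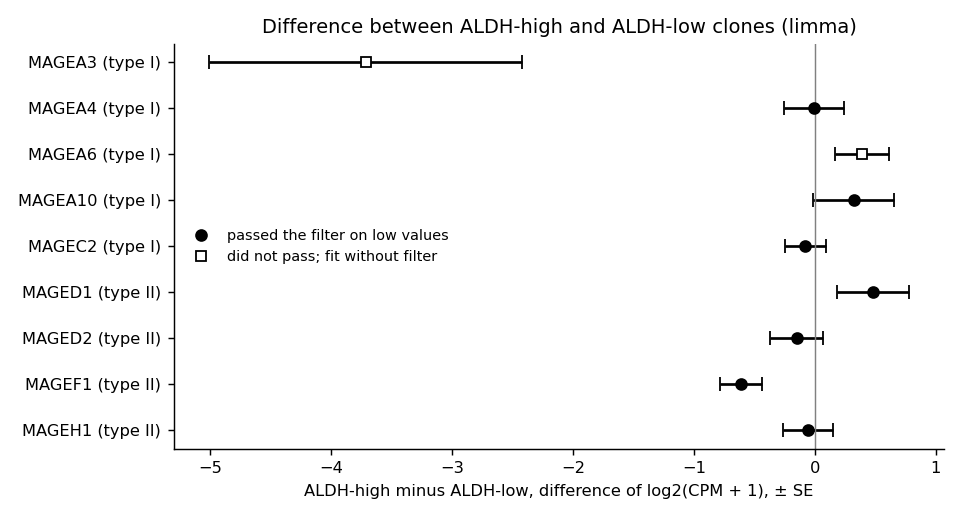
Difference of log2(CPM + 1) between ALDH-high and ALDH-low clones (horizontal axis, ALDH-high minus ALDH-low, positive where ALDH-high is higher) with its standard error, from limma. Filled circles are the 7 genes tested, and open squares are MAGEA3 and MAGEA6, fitted without the filter on low values; MAGEF1 (-0.61) has the smallest p of those tested, and MAGEA3 (-3.71) has the widest error bar (SE 1.30).

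The wild-type values, from a single library, were set beside those of the clones without a test. Wild type lay above all 6 clones for 3 of the 4 type II genes, MAGED1, MAGED2 and MAGEH1, at 1.98, 1.91 and 2.22 times the mean of the clones, and within their range for MAGEF1 (1.21 times). This compares with 22.6% of all tested genes above the clones. For type I genes wild type lay above the clones in 0 of the 3 tested. It lay below all clones for MAGEC2 (0.847 times the mean), as it did for 25.4% of all tested genes. For MAGEA4 and MAGEA10 wild type lay within the clones (1.26 and 1.08 times their mean). Whether the types differ in this was not tested.

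**Figure D5:**
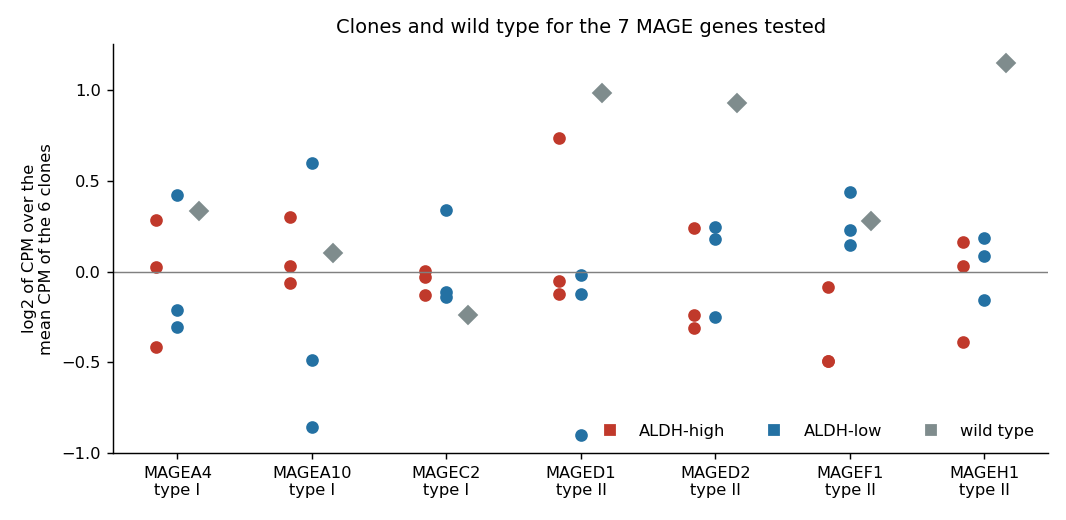
Each library's CPM over the mean CPM of the 6 clones, on a log2 axis, for the 7 MAGE genes tested; red and blue circles are ALDH-high and ALDH-low clones and grey diamonds the wild-type library. The diamonds of MAGED1, MAGED2 and MAGEH1 lie above all their circles, and that of MAGEC2 lies below them.

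Among the members tested, the spread over clones overlapped between type I and type II genes. The ratio of the highest to the lowest clone was 1.79 for MAGEA4, 2.74 for MAGEA10 and 1.39 for MAGEC2. It was 3.11 for MAGED1, 1.47 for MAGED2, 1.90 for MAGEF1 and 1.49 for MAGEH1. The median of this ratio was 1.79 over type I and 1.70 over type II members tested, against 1.84 over all genes tested. Of the 2 members not tested, MAGEA6 had a ratio of 4 and MAGEA3 one of 420.0. Median CVs were 13.5% (type I), 20.4% (type II) and 17.5% (all tested genes) in ALDH-high clones. In ALDH-low clones they were 29.2% (type I), 14.8% (type II) and 17.5% (all tested genes).

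Over the 7 libraries, MAGEA3 ran opposite to MAGEA10 and MAGEA6 (Pearson r of log2(CPM + 1) = -0.85 and -0.83), and MAGED2 ran with MAGEH1 (r = 0.90) and MAGED1 (r = 0.79). Wild type lay above all clones for MAGED1, MAGED2 and MAGEH1, so the r between these genes rest in part on that 1 library. All these values describe 7 libraries that include clones of 1 line, and no test was made. By a fixed rule, the 3 tested genes most like each of 4 members were found, leaving out genes with identical values. Nearest to MAGEA10 were HMGA2, a chromatin protein of embryonic and tumour cells (r = 0.989), the teneurin gene TENM3 (r = 0.976) and RABL2B, a small GTPase (r = 0.965). HMGA2 had 111.78, 90.21 and 67.00 CPM in ALDH-high clones, against 22.56, 142.56 and 40.24 CPM in the ALDH-low clones, with wild type at 78.81 CPM. It shares with MAGEA10 the low values of ALDH-low clones 1 and 8 and the high value of ALDH-low clone 3, as its choice by r entails.

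Nearest to MAGEA4 were DHFRL1, a dihydrofolate reductase copy (r = 0.970), TM2D3 (r = 0.961) and the topoisomerase gene TOP1 (r = 0.945). Nearest to MAGEC2 were R3HCC1 (r = 0.980), MIR31HG, the host transcript of miR-31 (r = 0.973), and PPID, a cyclophilin (r = 0.972). PPID had 55.35, 52.08 and 50 CPM in ALDH-high clones, against 41.28, 82.45 and 42.60 CPM in the ALDH-low clones, with wild type at 37.69 CPM. Nearest to MAGEF1 were APH1B, a subunit of gamma-secretase (r = 0.995), RAB3GAP2 (r = 0.985) and MGST3, a microsomal glutathione transferase (r = 0.983). APH1B had 6.83, 3.37 and 3 CPM in ALDH-high clones, against 10.40, 17.28 and 10.84 CPM in the ALDH-low clones, with wild type at 11.43 CPM. As for MAGEF1, the groups did not overlap and wild type lay within the ALDH-low clones. This likeness follows from the choice of APH1B by its r with MAGEF1 and is no separate result.

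Other cancer-testis antigens were counted from lists. Of 94 X-linked ones outside the MAGE naming rule, such as the CTAG, GAGE, SSX and XAGE genes, 1 is listed in the table, IL13RA2, a decoy receptor for interleukin 13. That the others are not listed does not show that they were silent. IL13RA2 had 726.83, 488.03 and 630.36 CPM in ALDH-high clones, against 180.36, 425.20 and 78.88 CPM in the ALDH-low clones, with wild type at 923.33 CPM. Every ALDH-high clone lay above every ALDH-low clone, with ALDH-low clone 3 the nearest. The groups were likewise without overlap, in either direction, for 26.1% of all tested genes. The difference was 1.73 (limma, SE 0.520, adjusted p = 0.134), and it passed with library weights, with DESeq2 and without ALDH-low clone 3. Of the 12705 genes tested, these settings called 700, 1004 and 173.

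A further list, mainly of autosomal cancer-testis antigens, has 70 genes, among them the X-linked PLAC1, TFDP3 and CPXCR1. Of the 70, 27 are listed and 24 were tested. Of these 24, 1 rose, none fell and 23 did not pass in limma, where 1.34% of all genes passed. On the recovered reads edgeR called 1 of the 24 (0.913% of all genes) and DESeq2 called 3 (7.9% of all genes). SPAG1, a dynein assembly factor first described in sperm, rose to 44.7 ± 3.30 CPM in ALDH-high clones, against 24.3 ± 0.925 CPM in ALDH-low clones (SD, n = 3 each) and 25.46 CPM in wild type. Its difference was 0.85 (limma, SE 0.144, adjusted p = 0.0388), and its call was lost when any 1 clone was left out. The next 3 genes by p did not pass. TMEFF1 had 5.54 ± 0.955 and 10.8 ± 1.61 CPM in ALDH-high and ALDH-low clones (limma, -0.85, SE 0.211, adjusted p = 0.0942). ATAD2, a bromodomain protein, had 309.5 ± 50 and 200.9 ± 16.1 CPM (0.61, SE 0.163, adjusted p = 0.107), and CTAGE5 had 40.1 ± 2.58 and 28.7 ± 3.85 CPM (0.47, SE 0.160, adjusted p = 0.167). The median difference over the 24 was -0.02, against 0.004 over all genes tested.

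None of the known partners of MAGE proteins passed the test. Of 14 ubiquitin ligases and reported substrates 12 are listed and 11 were tested, with 0 calls by limma, edgeR or DESeq2, 0 at an unadjusted p under 0.05 (against 19.7% of all genes), and a median difference of 0.07. TRIM28, the ligase of MAGEA3, MAGEA6 and MAGEC2, had 151.6, 126.12 and 163.60 CPM in ALDH-high clones, against 98.68, 116.79 and 132.44 CPM in the ALDH-low clones, with wild type at 93.96 CPM (limma, 0.34, SE 0.167, adjusted p = 0.305). The groups overlapped, and the ALDH-low clones with many MAGEA3 reads had the lowest and the highest TRIM28 level of their group. TRIM27, another MAGE-bound ligase, had 69.1 ± 1.71 and 57.0 ± 2.78 CPM in ALDH-high and ALDH-low clones (limma, 0.28, SE 0.129, adjusted p = 0.286). PJA1, the ligase of MAGED1, had 8.76 ± 0.667 and 11.0 ± 1.71 CPM (limma, -0.30, SE 0.191, adjusted p = 0.435), and HUWE1, a further ligase of the list, had 55.2 ± 5.38 and 61.5 ± 4.39 CPM (limma, -0.15, SE 0.143, adjusted p = 0.594).

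The SMC5/6 complex, which guards chromosome structure, contains a MAGE protein outside the naming rule, listed as NDNL2 (NSMCE3), as well as NSMCE1. NDNL2 was the 1 listed of 4 such type II genes. It had 7.27, 8.50 and 8 CPM in ALDH-high clones, against 3.80, 10.88 and 3.84 CPM in the ALDH-low clones, with wild type at 11.47 CPM. The low values were again those of ALDH-low clones 1 and 8 (limma, 0.45, SE 0.356, adjusted p = 0.522). All 7 genes of the complex were tested, with 0 calls by limma, edgeR or DESeq2 and 2 at an unadjusted p under 0.05, against 19.7% of all genes. These were NSMCE4A, at 79.2 ± 2.99 and 58.2 ± 7.82 CPM in ALDH-high and ALDH-low clones (limma, 0.45, SE 0.150, adjusted p = 0.165), and EID3, at 2.62 ± 0.135 and 1.45 ± 0.372 CPM (limma, 0.57, SE 0.212, adjusted p = 0.193). NSMCE2 had 44.8 ± 3.07 and 36.6 ± 2.71 CPM (limma, 0.285, SE 0.144, adjusted p = 0.324). The median difference over the complex was 0.285.

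Of 37 genes for DNA methylation and the silencing of germline genes, 33 are listed and were tested, and 0 passed limma, with a median difference of 0.05. An unadjusted p under 0.05 was found for 3 of the 33, a smaller share than the 19.7% of all genes. DESeq2 called 1 of the 33, against 7.9% of all genes, and edgeR called 0. The smallest p was that of ATF7IP, a partner of the histone methyltransferase SETDB1, at 25.1 ± 0.974 and 15.9 ± 0.725 CPM in ALDH-high and ALDH-low clones (limma, 0.63, SE 0.152, adjusted p = 0.0891). HDAC2 had 263.2 ± 16.2 and 204.3 ± 31.2 CPM (0.37, SE 0.155, adjusted p = 0.235). EZH2, the methyltransferase of Polycomb, had 105.1 ± 26.7 and 70.3 ± 13.8 CPM (0.56, SE 0.236, adjusted p = 0.241), and the heterochromatin protein gene CBX3 had 258.3 ± 19.1 and 328.3 ± 48.5 CPM (-0.34, SE 0.153, adjusted p = 0.274).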

How the data were processed

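Values were CPM that the authors deposited as 1 table, rounded to 2 decimals, for 13872 genes in 7 libraries. The submitters' processing notes list the aligner BWA 0.5.9 with hg19 and mm9 as builds, giving no roles. The column headers carry the suffix of CAGEr, software for tags from capped transcript ends; the library type and the counting are not given in the sources used here. Each column holds whole multiples of the CPM of 1 read (tolerance 0.0051 CPM), which gave whole reads for 99.82 to 100.0% of values. Reads of genes with identical values (1017 genes) may be counted more than once, so the recovered totals of 24177114 to 25664901 are not a sequencing depth.

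Members and gene lists were chosen with earlier results of these data known. Genes reaching 1 CPM in 3 or more of the 6 clones were tested on log2(CPM + 1) by limma 3.58.1 (eBayes with trend, two-sided) in R 4.3.3, adjusted by Benjamini-Hochberg over 12705 genes at a threshold of 0.05. Differences on this scale understate those of low genes. Those from edgeR and DESeq2 are log2 fold changes of reads without the added 1 CPM. P-values set the difference between groups against the spread between clones of 1 line. Wild type was not tested.

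The text names all members, the 3 tested genes with the highest Pearson r to MAGEA4, MAGEA10, MAGEC2 and MAGEF1, and in each gene list, markers apart, all calls or else the 4 smallest p. In the mainly autosomal list of cancer-testis antigens, which has a call, the next 3 by p are named as well. All listed urothelial markers are named. Genes chosen after their values were seen are named as such. Of these, 1 gene is not reported here. Alternatives were median-ratio scaling, quantile normalization, pseudocounts 0.1 and 5, a filter at 5 CPM or none, all 7 libraries in the fit, library weights, each clone left out, and edgeR 4.0.16 and DESeq2 1.42.0 on recovered reads. Scripts were tested on simulated data. Promoter windows are RefSeq's (GRCh38.p14, matched by symbol for 7 of 9 members) and transcripts are GENCODE's.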

Additional observations from a re-analysis of the deposited data

How the results depend on the processing

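Of the 7 MAGE genes tested, none passed in limma except under library weights, where 1 (MAGEF1) did. DESeq2 on recovered reads likewise called 1 of them (MAGEF1). The other 14 alternatives, edgeR and each clone left out included, called 0 of them. MAGEA3, which was not among the genes tested, is treated apart below. MAGEF1 kept its direction throughout, from -0.74 to -0.53, with -0.68 under library weights and -0.63 in DESeq2. The sign of MAGEA4 turned with quantile normalization (0.005), without ALDH-high clone 6 (0.185) and without ALDH-low clone 3 (0.222), with -0.16 to 0.222 over the clones left out. Without ALDH-low clone 3 the sign of MAGEC2 turned too (-0.16 to 0.075 over the clones left out), and without ALDH-high clone 10 that of MAGEH1 (-0.114 to 0.031). MAGEA10, MAGED1 and MAGED2 kept their direction and passed under no alternative. The alternatives for MAGEA3 and MAGEA6 without a filter were added after the data were seen. The MAGEA3 difference in limma ranged from -5.49 (without ALDH-low clone 3, adjusted p = 0.0016) to -2.70 with 1 clone left out. With any clone but ALDH-low clone 3 left out, the adjusted p was 0.263 to 0.42. In edgeR the log2 fold change was -7.08 (adjusted p = 0.0909) and in DESeq2 -7.10 (adjusted p = 0.000127). These fold changes are without the added 1 CPM and so on another scale than limma. The number of all genes called varied more, with 170 in limma, 34 to 173 with 1 clone left out, 116 in edgeR, 86 with the filter at 5 CPM, 700 with library weights and 1004 in DESeq2. The causes were not tested. The wild-type library lay outside the clones for 4 MAGE genes under median-ratio scaling and without the filter as well. No paired analysis was possible because the clone numbers of the groups share only the number 1 and mark different clones. Depth limits MAGEA6, MAGEH1 and the low MAGEA3 values, which rest on 4 to 67 reads.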

Other observations

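The MAGEA3 pattern among clones was shared by few genes. By a rule set after the MAGEA3 values had been seen (at least 5 CPM in both ALDH-low clones 1 and 8 and under 1 CPM in the other 4 clones), 5 of the 13872 genes were found, MAGEA3 and 4 others on 4 other chromosomes. ADAMTS12, a secreted metalloprotease gene on chromosome 5, had 17.84 and 22.84 CPM in ALDH-low clones 1 and 8, no reads in the other clones and 2.68 CPM in wild type. CTSZ, which encodes the lysosomal protease cathepsin Z (chromosome 20), had 14.92 and 12.64 CPM in those clones, no reads in the others and 0.08 CPM in wild type. EVA1A on chromosome 2 had 9.32 and 10.04 CPM there, none in the other clones and 0.16 CPM in wild type. RIPK4, a kinase gene of epidermal differentiation (chromosome 21), had 9.36 and 6.08 CPM there, at most 0.20 CPM in the other clones and 1.88 CPM in wild type. Wild type thus held reads of all 5 genes. For MAGEA3, ADAMTS12 and RIPK4 its level lay between those of the clones. For EVA1A it lay just above the floor of 3 reads (0.12 CPM in wild type). For CTSZ it lay below that floor, so that it could not be told from the clones without reads.

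Tested genes whose log2(CPM + 1) ran closely with that of MAGEA3 over the 7 libraries, at other levels, were also sought after its values were known. They included PPARD (Pearson r = 0.978) and FOXC2 (r = 0.976). PPARD, a lipid-sensing nuclear receptor, had 11.56, 11.90 and 12.84 CPM in ALDH-high clones, against 33.48, 14.81 and 29.60 CPM in the ALDH-low clones 1, 3 and 8, with wild type at 16.19 CPM. FOXC2, a transcription factor of mesenchymal development, had 0.60, 1.48 and 1 CPM in ALDH-high clones, against 5.60, 0.98 and 7.24 CPM in the ALDH-low clones, with wild type at 2.72 CPM. These are descriptions of 7 libraries and were not tested.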
